A study of Mus musculus with 6 samples.

Results

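Alternative activation is the state that macrophages take up under interleukin-4 (IL-4), and 9 genes that are widely used to recognise it in the mouse were followed in macrophages sorted from Day 3 skin wounds. They are Il4ra, Egr2, Tgm2, Chil3, Retnla, Ccl24, Mgl2, Clec10a and Pdcd1lg2. Each was taken by matching its gene symbol to the table of expected counts, and all 9 were found among 15168 genes. All 9 also passed the filter on low counts, which left 11878 genes to test. The cells came from full-thickness dorsal wounds of wild-type female C57BL/6J mice, of which 3 samples were young (12 weeks) and 3 were aged (24 months). The labels name no treatment apart from the wound, both ages share the digestion with liberase, and the comparison asks what differed between ages on Day 3. Samples carry a set letter, A, B or C, in each age, and nothing in the labels says that they came from separate mice, so p-values here measure the spread between these samples only.

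IL-4 and its relative IL-13 bind receptors that hold the chain IL-4Rα, the product of Il4ra. Kinases of the JAK family on these receptors phosphorylate the transcription factor STAT6, which then enters the nucleus and turns on the genes of alternative activation. In skin wounds these genes are known from the phase of repair, when macrophages support new tissue, and several of them are also switched on in macrophages by signals other than IL-4.

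The sort took CD45+ CD11b+ CD64+ F4/80+ cells, and no antibody to Ly6G was used to take neutrophils out. Libraries were of even depth, at 15270103 to 17927483 counts per sample. With the scaling factor of each library applied, 1 count was worth 0.0553 to 0.0701 CPM (counts scaled to a common library size). RNA of the sort markers was present in every library, with Fcgr1 (CD64) at 422 to 514 CPM, although 2 of the 4 changed with age. Itgam (CD11b) was higher in aged samples, by 0.99 on the log2 scale (edgeR adjusted p = 0.00735), and Adgre1 (F4/80) was lower, with a log2 fold change of -0.69 (edgeR adjusted p = 0.0292), and their part in the results below was not tested. Markers of monocytes, resident macrophages and neutrophils were present in every library, and their levels are given with the results below. In RNA from a pool of sorted cells, fewer cells of a type and less RNA per cell cannot be told apart.

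Pdcd1lg2, Tgm2 and Il4ra rose in aged Day 3 wound macrophages, and the other 6 genes did not pass the test. In the quasi-likelihood test of edgeR, with Benjamini-Hochberg adjusted p-values, 3 of 9 were higher and 0 of 9 lower at an adjusted p under 0.05. Of all genes tested, 9.73% were called higher and 7.97% lower by the same rule. At an unadjusted p under 0.05 the counts were 5 higher and 0 lower, where 18.1% of all genes tested were higher and 16.5% lower. DESeq2 called 5 higher and 0 lower, where it called 12.4% of all genes higher and 9.16% lower. Pdcd1lg2 and Tgm2 also changed by more than 2-fold, which 4.59% of all genes tested did upwards and 4.2% downwards. The fitted log2 fold change was positive for 7 of the 9 genes, with a median of 0.76 against -0.02 over all genes tested. In 3 genes, Pdcd1lg2, Tgm2 and Il4ra, every aged sample lay above every young sample, an order that 19.2% of all genes tested had, and 38.2% were separated in either direction.

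**Figure D1:**
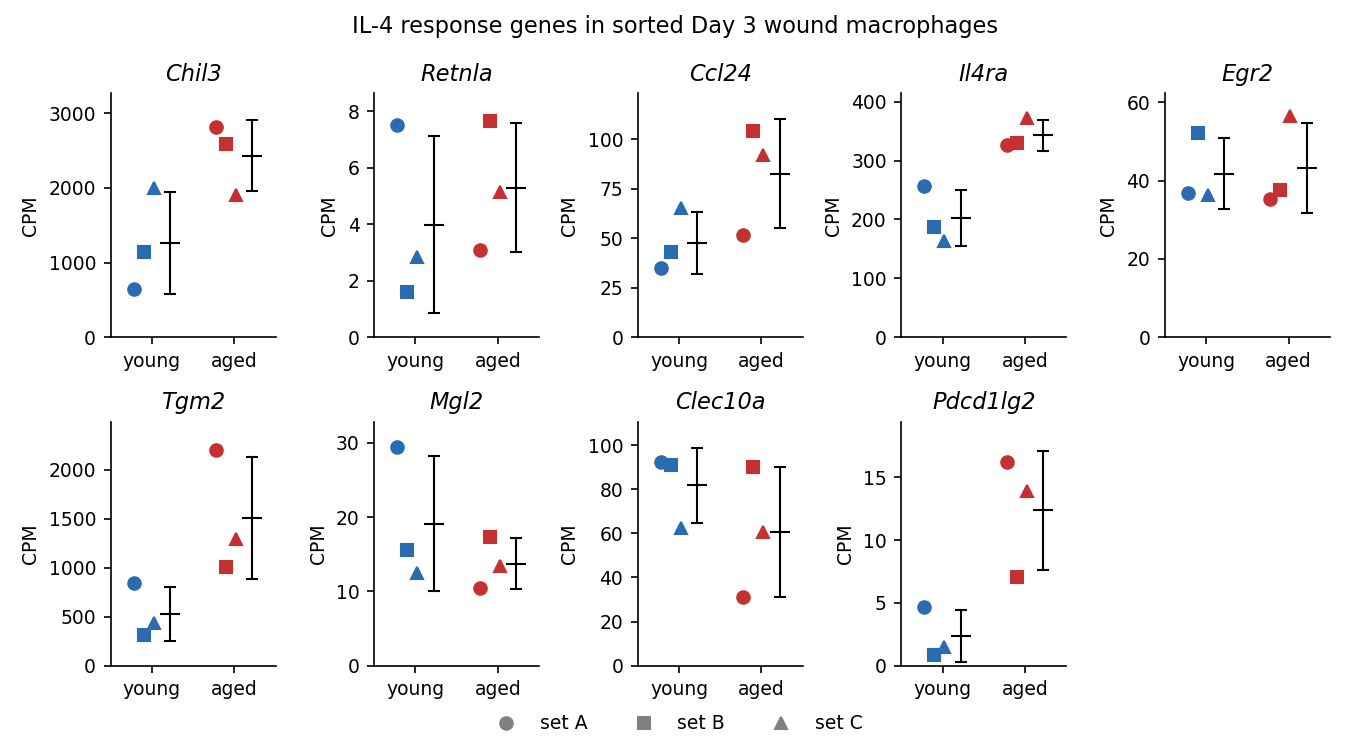
Expression of the 9 genes in CPM (each y axis from 0) in young (blue) and aged (red) samples, with the set letter as the symbol and the mean ± SD of 3 samples beside the points. Aged samples lie wholly above young samples for Il4ra, Tgm2 and Pdcd1lg2, and the ages overlap for the other 6 genes.

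Added together, the 9 genes took 0.216%, 0.200% and 0.275% of all counts in young samples A, B and C, and 0.513%, 0.411% and 0.345% in the aged samples. Both ages were separated on this measure, and young B and aged A were its extremes. Chil3 and Tgm2 made up most of the sum in every sample, and Chil3 by itself overlapped between ages and did not pass the test.

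Il4ra encodes the receptor chain through which macrophages sense both cytokines. It was at 256, 187 and 164 CPM in young samples A, B and C, and at 326, 329.8 and 372 CPM in aged samples A, B and C. All aged samples were above the young ones and were close to each other, while young A stood above young B and C. The means were 202 ± 48.0 CPM in young samples and 343 ± 25.7 CPM in the aged samples (SD, n = 3), which is 0.76 ± 0.19 (SE) as a log2 fold change, at an edgeR adjusted p of 0.0272. The call was lost without young B, young C or aged C, with edgeR adjusted p-values of 0.0930, 0.124 and 0.101. Il4ra lies on chromosome 7, from 125552120 to 125579475 on the plus strand of mm10.

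Egr2 encodes a zinc finger transcription factor that IL-4 induces early and that takes part in later gene activation. It was at 36.8, 52.2 and 36.2 CPM in young and at 35.4, 37.6 and 56.4 CPM in aged samples. One sample of each age, young B and aged C, stood above the rest, and the others of both ages lay together. The means were 41.7 ± 9.07 and 43.1 ± 11.5 CPM (log2 fold change 0.05 ± 0.22 SE, edgeR adjusted p = 0.904), and the sign turned when young A, young C or aged C was left out. Egr2 lies on chromosome 10, 67535475 to 67542189, plus strand.

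Tgm2 makes the enzyme tissue transglutaminase, which cross-links proteins and is a marker of alternative activation shared by mouse and human macrophages. It was at 841, 309 and 437 CPM in young samples and at 2208, 1013 and 1299 CPM in aged samples. Sample A was the highest in both ages, and the lowest aged sample was above the highest young sample. The means were 529 ± 278 and 1507 ± 624 CPM, which is 1.51 ± 0.38 (SE) as a log2 fold change, at an edgeR adjusted p of 0.0258. The edgeR adjusted p lay between 0.0612 and 0.115 when young B, young C, aged A or aged C was left out. Tgm2 lies on chromosome 2, 158116402 to 158146437, minus strand, and overlaps Rprd1b on the other strand, which, named after its values were seen, was at 14.1 ± 2.36 and 18.3 ± 2.64 CPM. Whether strand was used in counting is not stated, so reads in the overlap cannot be assigned.

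Pdcd1lg2 encodes PD-L2, a ligand of the inhibitory T cell receptor PD-1 and a surface marker of IL-4-treated macrophages. It was scarce, at 85, 14 and 23 counts (4.70, 0.821 and 1.52 CPM) in young and 231, 111 and 225 counts (16.2, 7.07 and 13.9 CPM) in aged samples. Every aged sample was above every young one, and young A lay nearest to the aged samples. The means were 2.35 ± 2.07 and 12.4 ± 4.74 CPM, which is 2.38 ± 0.54 (SE) as a log2 fold change, at an edgeR adjusted p of 0.0189. The call was lost without young B, young C or aged C, with edgeR adjusted p-values of 0.0550, 0.0936 and 0.0612. In the 6 fits that left out 1 sample each, the log2 fold change lay between 1.98 and 3.41. Pdcd1lg2 lies on chromosome 19, 29410919 to 29471162, plus strand, and the antisense gene A930007I19Rik overlaps it. A930007I19Rik, likewise named after its values were seen, rose from 4.86 ± 0.348 to 20.1 ± 4.35 CPM (log2 fold change 2.05 ± 0.23 SE, edgeR adjusted p = 0.00147). With the use of strand not stated, counts of these genes cannot be told apart in the overlap. Cd274, which encodes the related ligand PD-L1, rose as well, from 57.1 ± 8.52 to 134 ± 44.8 CPM (log2 fold change 1.23 ± 0.24 SE, edgeR adjusted p = 0.0122).

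**Figure D2:**
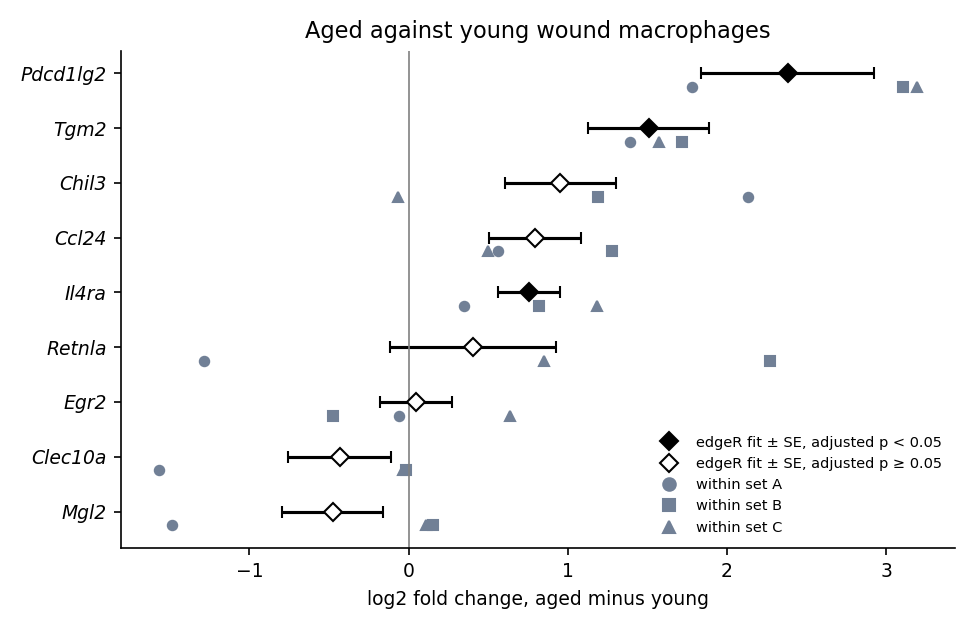
Log2 fold change of aged against young samples for each gene, as the edgeR estimate ± standard error (diamond, filled at an adjusted p under 0.05) and as the ratio of the samples with the same set letter (small symbols), a letter that was not taken to pair samples. Pdcd1lg2, Tgm2 and Il4ra have filled diamonds.

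Among the secreted products, Chil3 encodes Ym1, a chitinase-like lectin without chitinase activity that serves as a standard marker of mouse alternative activation and is also made by inflammatory monocytes. It was at 642, 1136 and 1993 CPM in young and at 2810.4, 2586 and 1904 CPM in aged samples. Young C exceeded aged C, and young A and B were below every aged sample. The means were 1257 ± 684 and 2433 ± 472 CPM (log2 fold change 0.95 ± 0.35 SE, edgeR adjusted p = 0.0820), and DESeq2 gave an adjusted p of 0.0199. Chil3 lies on chromosome 3, 106147554 to 106167565, minus strand.

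Several markers of monocytes rose with age too, and their part in the level of Chil3 was not tested. Without Chil3, 6 of 14 tested monocyte genes rose and 0 fell in the edgeR test (8 and 1 at an unadjusted p under 0.05). Of all genes tested, 9.73% rose and 7.97% fell (18.1% and 16.5% unadjusted). The summed level of these monocyte genes was 4342 to 8680.0 CPM in young samples and 17398 to 22287 CPM in the aged samples. Among young samples it was highest in young A, where Chil3 was lowest. Thbs1, which encodes thrombospondin 1, was the largest part of this sum on average, at 3854 ± 2701 and 16855 ± 1878 CPM (log2 fold change 2.13, edgeR adjusted p = 0.0115). With Thbs1 taken out as well, the summed level of the remaining monocyte markers overlapped between ages. The defining markers Ly6c2 and Ccr2, named after their values were seen, were at 212 ± 92.7 and 356 ± 134 CPM in young and 194 ± 69.0 and 318 ± 82.5 CPM in aged samples. Neither passed the edgeR test (log2 fold change -0.13 and -0.16, adjusted p = 0.818 and 0.706).

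Retnla encodes RELMα, a small secreted protein known from type 2 inflammation and wound collagen assembly. It was scarce, at 136, 27 and 43 counts (7.52, 1.58 and 2.84 CPM) in young and 44, 120 and 83 counts (3.08, 7.64 and 5.13 CPM) in aged samples. The highest values, in young A and aged B, came from different ages, and the ages overlapped. The means were 3.98 ± 3.13 and 5.28 ± 2.28 CPM (log2 fold change 0.40 ± 0.52 SE, edgeR adjusted p = 0.617), so a difference was not detectable. In the 6 fits that left out 1 sample each, the log2 fold change lay between 0.02 and 1.26. Its paralog Retnlg, a neutrophil gene, rose from 115 ± 19.7 to 207 ± 65.7 CPM (log2 fold change 0.85, edgeR adjusted p = 0.0393), along with 5 of the other 18 neutrophil markers tested. Retnla lies on chromosome 16, 48842551 to 48844462, plus strand.

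Ccl24 encodes eotaxin-2, a chemokine that draws eosinophils. It was at 34.9, 43.0 and 65.3 CPM in young and at 51.5, 104 and 92.1 CPM in aged samples. Aged A fell within the young range, and aged B and C were above it. The log2 fold change was 0.79 (standard error 0.29, edgeR adjusted p = 0.0806), and DESeq2 gave an adjusted p of 0.0359. Without aged A, edgeR called it, at an adjusted p of 0.0310. Ccl24 lies on chromosome 5, 135569937 to 135573050, minus strand.

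Mgl2 and Clec10a encode the macrophage galactose-type C-type lectins CD301b and CD301a, which bind galactose and N-acetylgalactosamine on glycoproteins. They sit close to each other on the plus strand of chromosome 11, Mgl2 from 70130329 to 70137551 and Clec10a from 70156197 to 70170835. Their coding sequences are 94.4% identical over 924 aligned bases, with 1 perfect run of 183 bases, at coding bases 550 to 732 of Mgl2 (GENCODE M21 on GRCm38). It is printed because a read that falls wholly inside it fits both genes.
Mgl2 and Clec10a shared run: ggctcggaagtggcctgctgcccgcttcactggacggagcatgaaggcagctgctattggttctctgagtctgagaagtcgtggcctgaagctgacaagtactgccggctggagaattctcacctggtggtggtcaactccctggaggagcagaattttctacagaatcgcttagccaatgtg
Of the 994 stretches of 150 bases in the Mgl2 coding sequence, 34 occur in Clec10a as well. The deposited counts of each of these genes lay more than 0.05 from a whole number in 5 of 6 samples. Those of Il4ra and Tgm2 did so in 4 samples each, and in each library 30.7% to 34% of values were not whole.

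Mgl2 was at 29.4, 15.5 and 12.4 CPM in young and 10.5, 17.3 and 13.4 CPM in aged samples, and young A was apart from the other 5. Clec10a was at 92.5, 90.9 and 62.2 CPM in young and 31.2, 89.9 and 60.7 CPM in aged samples, with aged A the lowest of the 6. The ages overlapped in both genes. The log2 fold change was -0.48 for Mgl2 (standard error 0.32, edgeR adjusted p = 0.313) and -0.43 for Clec10a (standard error 0.32, edgeR adjusted p = 0.366). Added together as 1 gene, an alternative chosen after the data were seen, they gave 101 ± 24.1 CPM in young samples and 74.3 ± 32.8 CPM in the aged samples (log2 fold change -0.44, edgeR adjusted p = 0.333). These were the 2 genes of the 9 with a negative log2 fold change. With 1 sample left out, it lay between -0.71 and -0.03 for Mgl2 and between -0.82 and -0.12 for Clec10a.

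Dermal dendritic cells and resident macrophages of the skin also carry these lectins, and their part in the levels of Mgl2 and Clec10a was not tested. Of 23 resident macrophage markers tested, 6 fell and 1 rose in aged samples in the edgeR test (8 and 4 at an unadjusted p under 0.05). Over all genes tested, 7.97% fell and 9.73% rose (16.5% and 18.1% unadjusted). C1qb, a complement gene and the most abundant of them, fell from 2913 ± 129 to 1414 ± 326 CPM (log2 fold change -1.04, edgeR adjusted p = 0.0123), and Selenop was at 2658 ± 1039 and 1310.0 ± 673 CPM (log2 fold change -1.02, edgeR adjusted p = 0.0779). The summed level of the resident macrophage markers was 10890.1 to 13628 CPM in young samples and 6304 to 10707 CPM in the aged samples. The lowest sum was in aged A, the sample with the lowest level of both lectins. Among young samples the lowest sum was in young A, which had the highest level of both lectins. Mrc1, the mannose receptor found on resident and IL-4-treated macrophages, was at 177, 205 and 145 CPM in young and 94.2, 274 and 144 CPM in aged samples, again lowest in aged A (log2 fold change -0.04 ± 0.33 SE, edgeR adjusted p = 0.944). Of 15 dendritic cell markers tested, 1 rose and 0 fell (4 and 1 at an unadjusted p under 0.05), where 9.73% of all genes tested rose. Tnip3 and Ccr7 were the most abundant of these markers (log2 fold changes 0.67 and 1.54, edgeR adjusted p = 0.0327 and 0.0860). The sign was positive for 10 of the 15. Kmo, Cd207, Batf3 and Cd209a, named after their values were seen, had log2 fold changes of -1.38, -1.02, -0.94 and -0.67. None of these passed the edgeR test (adjusted p = 0.0590, 0.321, 0.191 and 0.158). The summed level of the dendritic cell markers was 94.7 to 138 CPM in young samples and 136 to 185 CPM in the aged samples. It was highest in sample A of each age.

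Levels can be set against each other once divided by exon length, as CPM per kilobase of exon. In young samples Chil3 stood first at 770.2 ± 419 CPM per kilobase, apart from all others. Tgm2 came next at 115 ± 60.3 CPM per kilobase, apart from the genes above and below it. Ccl24, Il4ra and Clec10a formed the following group, at 36.9 ± 12.1, 33.7 ± 8.00 and 28.2 ± 5.88 CPM per kilobase, and neighbours in it overlapped. Egr2, Mgl2 and Retnla followed at 12.3 ± 2.67, 9.14 ± 4.32 and 6.65 ± 5.22 CPM per kilobase, also with overlap between neighbours. Pdcd1lg2 was last in both ages, at 1.20 ± 1.05 CPM per kilobase in young and 6.31 ± 2.42 CPM per kilobase in aged samples.

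The order in aged samples had the same first 6 genes, from Chil3 at 1491 ± 289 to Egr2 at 12.7 ± 3.39 CPM per kilobase. Chil3 and Tgm2 (327 ± 135 CPM per kilobase) were again apart from each other and from the genes below them. Retnla and Mgl2 exchanged places, at 8.82 ± 3.81 and 6.56 ± 1.63 CPM per kilobase, but neighbours from Clec10a down to Pdcd1lg2 overlapped. Among all genes tested, Chil3 ranked 85 of 11878 per kilobase in young and 47 in aged samples, while Pdcd1lg2 ranked 8136 and 4155.

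**Figure D3:**
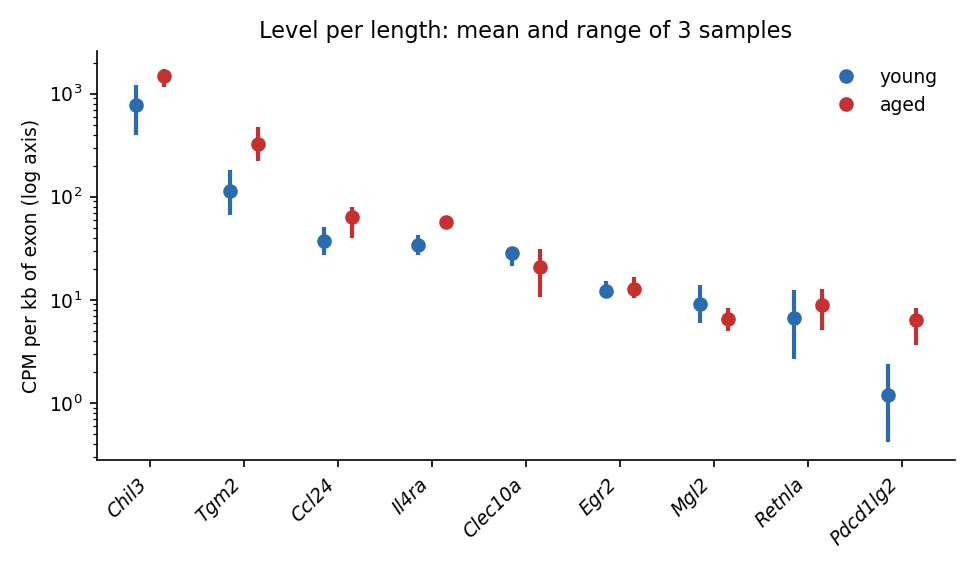
Level of each gene per exon length (CPM per kilobase, log axis) in young (blue) and aged (red) samples, as the mean (point) and the range of 3 samples (line). Chil3 lies above the other genes in both ages, and Pdcd1lg2 is the lowest in both.

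Upstream sequence of 6 of the 9 genes, Chil3, Retnla, Mgl2, Il4ra, Egr2 and Pdcd1lg2, could be matched in RefSeq promoter windows (GRCm38.p6, 250 bases before to 50 after each start). STAT factors bind palindromes of TTC and GAA, and the spacing of 4 bases, TTCNNNNGAA, is the one known for STAT6. Retnla and Pdcd1lg2 had a match to it, at 145 and 82 bases before the RefSeq start. Chil3 had one with a spacing of 3 bases, TTCNNNGAA, 172 bases before its RefSeq start. The sequences upstream of these 3 genes are shown because they hold the matches, which are in capitals. The Retnla sequence ends just before the gene start given above, which lies upstream of its RefSeq start. Its 145 bases therefore do not count back from the last base shown.
Retnla, chr16:48842359-48842550, plus strand: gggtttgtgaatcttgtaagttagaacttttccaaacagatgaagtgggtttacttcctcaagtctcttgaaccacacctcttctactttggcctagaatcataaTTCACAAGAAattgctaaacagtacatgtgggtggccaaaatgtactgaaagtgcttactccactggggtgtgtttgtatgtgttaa
Pdcd1lg2, chr19:29410669-29410918, plus strand: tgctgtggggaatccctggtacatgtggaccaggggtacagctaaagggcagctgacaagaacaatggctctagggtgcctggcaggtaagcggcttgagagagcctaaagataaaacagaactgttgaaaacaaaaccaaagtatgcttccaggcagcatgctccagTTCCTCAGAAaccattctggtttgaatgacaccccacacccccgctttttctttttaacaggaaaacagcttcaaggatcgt
Chil3, chr3:106167566-106167814, minus strand: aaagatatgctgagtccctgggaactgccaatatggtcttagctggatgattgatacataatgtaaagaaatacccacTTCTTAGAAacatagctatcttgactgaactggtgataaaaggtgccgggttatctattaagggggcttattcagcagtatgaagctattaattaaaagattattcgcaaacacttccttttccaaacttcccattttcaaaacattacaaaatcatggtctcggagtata
Both motifs read the same on either strand. Of 32851 mouse promoter windows, 6.95% hold TTCNNNNGAA and 8.3% hold TTCNNNGAA. The letters were not found in the windows of Il4ra, Mgl2 and Egr2. A match is a description of the letters only, and of the 3 genes with one, Pdcd1lg2 rose while Chil3 and Retnla did not pass the edgeR test.

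The gene of the cytokine itself was hardly seen in these libraries. Il4 had 4, 0 and 2 counts in young and 6, 1 and 1 counts in aged samples, and was too low to test. Il13 was not analysed here. Of 4 tested cytokines that start or hold type 2 responses, 1 rose and 0 fell in the edgeR test (2 and 0 at an unadjusted p under 0.05). The one that rose was Csf2, named after its values were seen, which encodes the growth factor GM-CSF and went from 0.197 ± 0.0796 to 2.35 ± 1.05 CPM (log2 fold change 3.52 ± 0.57 SE, edgeR adjusted p = 0.00623). It was scarce, at 5, 2 and 3 counts in young samples and 26, 56 and 27 counts in aged samples. Csf2 passed the filter on low counts only through the aged samples. Of others named after their values were seen, Il33 did not pass (edgeR adjusted p = 0.398), and Il5 and Tslp were too low to test. Mast cells, basophils and eosinophils are known sources of IL-4, and the joint list of their markers had a summed level of 34.7 to 114 CPM in young samples and 20.1 to 97.6 CPM in the aged samples. Of 10 tested markers in it, 1 rose and 0 fell in the edgeR test (3 and 0 at an unadjusted p under 0.05), where 9.73% of all genes tested rose. The one that rose was Ear2, a gene of the eosinophil-associated ribonuclease family named after its values were seen. It went from 4.76 ± 2.33 to 14.2 ± 4.48 CPM (log2 fold change 1.57, edgeR adjusted p = 0.0200). Of the receptor genes in the list, also named after their values were seen, Ccr3 did not pass (edgeR adjusted p = 0.279) and Il5ra was too low to test. Cpa3, a mast cell protease gene, did not pass (edgeR adjusted p = 0.448) and was at 23.5, 15.1 and 7.33 CPM in young samples and at 17.7, 0 and 0 CPM in aged samples.

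Among receptor chains other than Il4ra, kinases, STAT6 and inhibitors of IL-4 signalling, 7 of 15 tested genes rose and 1 fell in the edgeR test. Their median log2 fold change was 0.40, and of all genes tested 9.73% rose and 7.97% fell. Stat6 was at 69.9, 76.6 and 67.6 CPM in young and 99.3, 106 and 101 CPM in aged samples. The 2 ages were well apart and each was tight, and the log2 fold change was 0.52 (standard error 0.15, edgeR adjusted p = 0.0374). Jak2, a receptor kinase gene, rose from 21.1 ± 3.47 to 62.5 ± 8.40 CPM (log2 fold change 1.57, edgeR adjusted p = 0.00195). The kinase genes Jak1 and Jak3, named after their values were seen, did not pass. Their log2 fold changes were 0.40 and -0.0001 (edgeR adjusted p = 0.0907 and 0.9999). Il13ra1, the partner chain of IL-4Rα in the receptor that binds both cytokines and named here after its values were seen, rose from 70.6 ± 7.24 to 125 ± 20.6 CPM (log2 fold change 0.83, edgeR adjusted p = 0.0154). Il2rg, the partner in the other receptor and likewise named after its values were seen, was at 481 ± 56.7 and 408 ± 37.7 CPM (log2 fold change -0.24, edgeR adjusted p = 0.341).

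The other 4 genes of this list that rose encode feedback inhibitors of cytokine signalling that STAT proteins induce. Cish rose from 54.6 ± 6.03 to 182 ± 31.1 CPM (log2 fold change 1.74, edgeR adjusted p = 0.00127). Socs3, Socs1 and Socs2 had log2 fold changes of 1.73, 1.65 and 1.5 (edgeR adjusted p = 0.00898, 0.0172 and 0.00815). Ptpn6, the gene of the phosphatase SHP-1, which dampens receptor signals, fell from 198 ± 81.7 to 93.8 ± 4.37 CPM (log2 fold change -1.08, edgeR adjusted p = 0.0270).

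Of 37 other tested genes known to be induced by IL-4 in mouse macrophages, 11 rose and 1 fell in the edgeR test. By the same rule 9.73% of all genes tested rose and 7.97% fell. The median log2 fold change of the list was 0.57. Cish and Socs2 stand in this list as well. Cdh1, the gene of E-cadherin, rose from 1.68 ± 0.154 to 9.0 ± 2.03 CPM (log2 fold change 2.41, edgeR adjusted p = 0.00195). Mmp12, macrophage elastase, rose from 274 ± 104 to 839.6 ± 145 CPM (log2 fold change 1.62, edgeR adjusted p = 0.00627). Tgfb1, the gene of the repair cytokine TGF-β1, rose from 57.3 ± 14.4 to 115 ± 20.2 CPM (log2 fold change 1.0, edgeR adjusted p = 0.0149). Igf1, which encodes a growth factor that macrophages supply during repair, fell from 21.1 ± 3.96 to 6.64 ± 5.11 CPM (log2 fold change -1.67, edgeR adjusted p = 0.0301). Mrc1, described above, belongs to this list and did not pass.

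**Figure D4:**
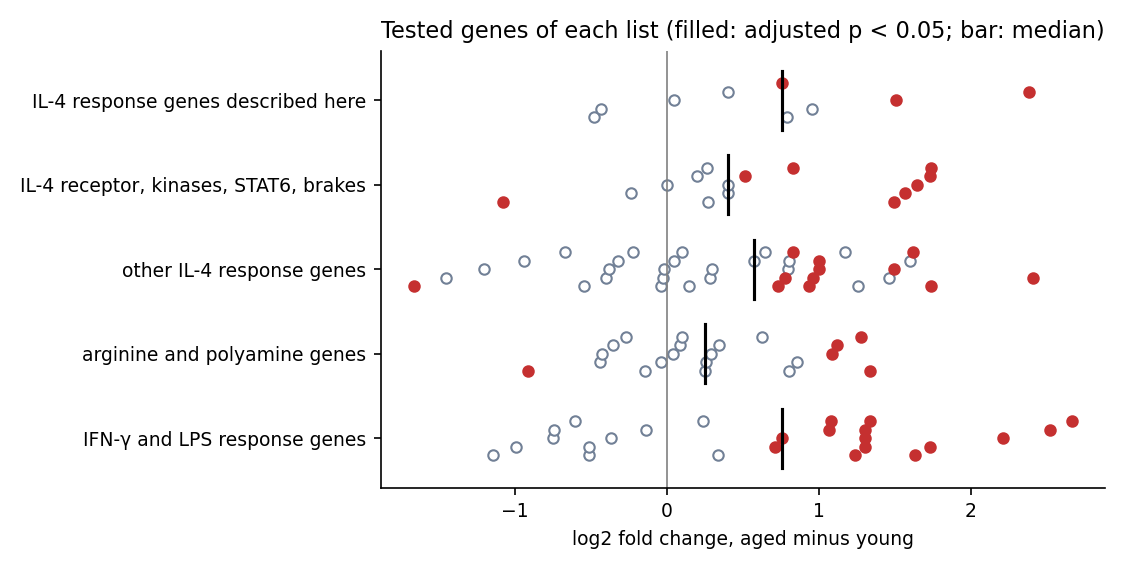
Log2 fold change of aged against young samples for every tested gene of 5 lists (red and filled at an edgeR adjusted p under 0.05, open otherwise), with the median of each list as a bar. The medians are 0.76, 0.40, 0.57, 0.25 and 0.76 from the top list to the bottom one.

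Arginine use is a further feature by which macrophage states are told apart. In the edgeR test 4 of 21 tested genes of arginine and polyamine metabolism rose while 1 fell (median log2 fold change 0.25). Of all genes tested, 9.73% rose and 7.97% fell. Nos2, inducible nitric oxide synthase, which uses arginine to make nitric oxide and marks classical activation, rose from 21.5 ± 9.99 to 54.3 ± 11.3 CPM (log2 fold change 1.33 ± 0.30 SE, edgeR adjusted p = 0.0186). Odc1, the gene of the decarboxylase that turns ornithine into the polyamine putrescine, and Azin1, whose product protects that enzyme, rose with log2 fold changes of 1.12 and 1.09 (edgeR adjusted p = 0.0202 and 0.0178). The genes of the later steps of polyamine synthesis, Srm, Sms and Amd1, named after their values were seen, did not pass the edgeR test, with log2 fold changes of -0.44, -0.43 and 0.25 (adjusted p = 0.288, 0.230 and 0.421). Smox, which encodes spermine oxidase, an enzyme that turns spermine back into spermidine, rose (log2 fold change 1.28, edgeR adjusted p = 0.0120). P4ha2, which encodes a prolyl hydroxylase for collagen, fell (log2 fold change -0.91, edgeR adjusted p = 0.0371).

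Genes known to be induced by interferon-γ and LPS, the signals of classical activation, were set beside these. In the edgeR test 14 of 25 rose and 0 fell, where 9.73% of all genes tested rose and 7.97% fell. The counts were 14 and 3 at an unadjusted p under 0.05, 14 and 1 with DESeq2, and 14 and 2 with limma-voom. The median log2 fold change was 0.76, against 3 of 9 higher and 0.76 for the alternative activation genes. Without young C the classical activation count was 1 higher and 0 lower, where 1.24% of all genes were higher and 0.548% lower. Il12a, Il1a, Il23a and Il6, which encode inflammatory cytokines or their subunits, had log2 fold changes of 2.67, 2.52, 2.21 and 1.64 (edgeR adjusted p = 0.0189, 0.00436, 0.0208 and 0.0221). Il12a was scarce, at 1, 9 and 8 counts in young and 40, 30 and 38 counts in aged samples. It passed the filter on low counts only through the aged samples. Socs3, described above, is in this list too. The sign was positive for 16 of the 25, and the interferon-γ-induced genes Cxcl9, Ciita and Cd40, named after their values were seen, had log2 fold changes of -1.14, -0.99 and -0.74 that did not pass (edgeR adjusted p = 0.143, 0.118 and 0.0726). The difference between the lists was not tested.

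Samples of 1 age varied to different degrees from gene to gene. Among young samples the ratio of the highest to the lowest CPM ran from 1.44 for Egr2 to 5.72 for Pdcd1lg2, and among aged samples from 1.14 for Il4ra to 2.88 for Clec10a. Young A was the lowest of the young samples for Chil3 and Ccl24, and the highest for Retnla, Mgl2, Clec10a, Il4ra, Tgm2 and Pdcd1lg2, although for Clec10a it was close to young B. Without young A the edgeR test called 3 of the 9 genes and 13% of all genes higher, and without young B, young C or aged C it called 0 of them, where it called 3.57%, 1.24% and 2.87% of all genes higher. Over all genes, leaving out young C reduced the calls from 1156 higher and 947 lower to 151 higher and 67 lower.

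**Figure D5:**
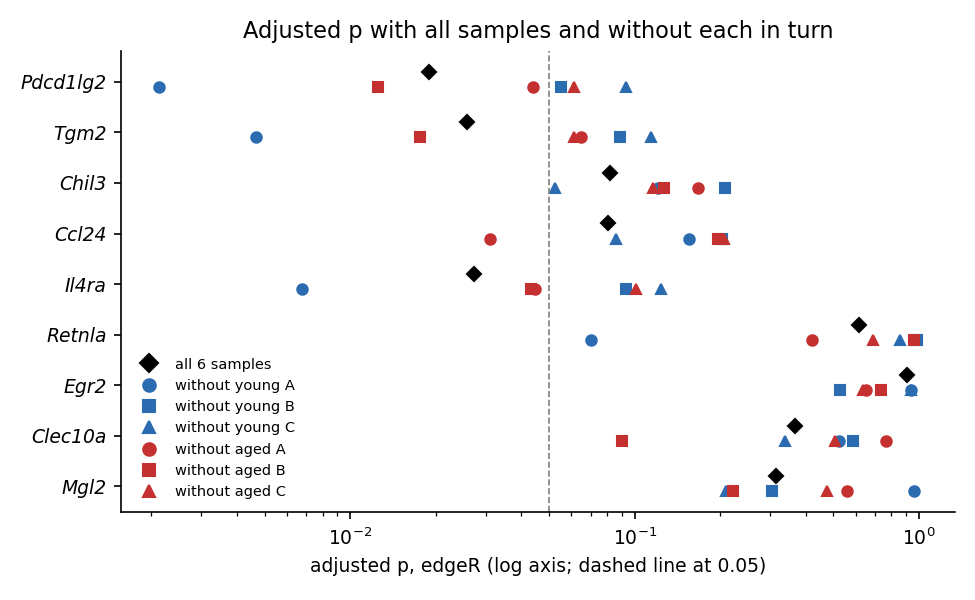
EdgeR adjusted p of each gene (log axis, dashed line at 0.05) with all 6 samples (black diamond) and with each sample left out in turn (blue, young sample left out; red, aged sample left out; symbol, set letter). Pdcd1lg2 and Il4ra have 3 of 6 such values under 0.05, Tgm2 has 2, Ccl24 has 1, and the other 5 genes have 0.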

How the data were processed

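RNA of the 6 sorted samples was amplified with SMART-Seq v4 and sequenced on a NovaSeq. The authors aligned reads with STAR 2.7.3a to mm10 and quantified Ensembl transcripts in Partek Flow, and they deposited expected counts per gene without normalisation. No gene in the deposited table sums to fewer than 10 counts, and whether strand was used is not stated. A second deposited table, with the authors' own comparison, was not used here. The sites at which the mice were housed and any pooling are not given per sample, so the part of site and pooling could not be examined.

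Expected counts were rounded to whole numbers, although the planned test named counts, and were fitted in R 4.3.3 with edgeR 4.0.16 (TMM scaling, filterByExpr by age, quasi-likelihood test, no covariate). P-values were adjusted by Benjamini-Hochberg over 11878 genes, and the threshold was 0.05. CPM values use TMM-scaled library sizes. The scripts were tested on simulated data. Exon lengths come from GENCODE M21. DESeq2 1.42.0, limma 3.58.1, other filters, scalings and thresholds, a block on the set letter and fits without each sample were alternatives. Within each age the samples differed beyond counting noise, so none was taken as a repeat deposit of another, which does not show that they came from separate mice. The alternative activation genes and all gene lists were chosen with earlier results of these data known. One gene of the set, 1 of the classical activation list and 1 of the arginine and polyamine list are not reported here. Genes named are the 9 described, their paralogs, sort markers, Il4, Il13, Stat6, Mrc1, Nos2, the 5 largest calls each way with separated ages in 4 lists, and the 2 most abundant of each marker list. Others are marked where named. Figures were drawn in Python 3.11.15 with matplotlib 3.10.9 and pandas 2.3.3.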

Additional observations from a re-analysis of the deposited data

How the results depend on the processing

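Of the 9 genes, 3 were called higher and 0 lower. The count higher was 5 with DESeq2 (12.4% of all genes) and 5 at an adjusted p under 0.1 (1782 of 11878 genes), and ran from 0 to 3 when 1 sample was left out, while the count lower was 0 in every fit. It was 0 without young B, young C or aged C. Egr2 turned sign, with log2 fold changes from -0.19 to 0.25 when 1 sample was left out, and the cause was not tested. The other 8 genes kept their sign in every fit. For the lists, leaving out 1 sample gave 2 to 6 higher and 0 to 1 lower for IL-4 signalling (7 and 1 with all samples), 3 to 12 and 0 to 1 for other IL-4 response genes (11 and 1), 0 to 6 and 0 to 1 for arginine and polyamine genes (4 and 1), and 1 to 14 and 0 to 2 for classical activation (14 and 0), with the fewest higher without young C in all 4. In these fits the share of all genes called higher ran from 1.24% without young C to 13% without young A. The 2-fold threshold gave 6 higher for the other IL-4 response genes and 0 lower for the arginine and polyamine genes. Genes lower were 2 for the other IL-4 response list with DESeq2, with at least 10 counts in every sample and at an adjusted p under 0.1. They were 2 for arginine and polyamine genes with limma-voom, and for classical activation 1 with DESeq2, 2 with limma-voom and 1 at an adjusted p under 0.1. limma-voom with sample quality weights called 1933 genes higher and 1713 lower over all genes, against 1156 and 947. With the set letter as a replicate block, 4 of the 9 genes were higher (10.1% of all genes), Ccl24 added (log2 fold change 0.78, edgeR adjusted p = 0.0324). Deviations of samples with the same letter correlated at 0.20, -0.02 and 0.15 for A, B and C, and not every sample correlated best with its own letter, so the letters were not taken to pair the samples. Retnla and Pdcd1lg2 had the fewest counts of the 9 genes, and with 3 samples per age the spread between samples limits every comparison.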

Other observations

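Marker lists of other cells were followed as well. Of 19 neutrophil markers tested, 6 rose and 0 fell in the edgeR test (7 and 1 at an unadjusted p under 0.05). Over all genes tested, 9.73% rose and 7.97% fell (18.1% and 16.5% unadjusted). The summed level of the neutrophil markers was 1159 to 1608 CPM in young and 1344 to 2788 CPM in aged samples. Of the most abundant, S100a9 did not pass (edgeR adjusted p = 0.700) and Trem1 rose from 143 ± 19.8 to 345 ± 153 CPM (edgeR adjusted p = 0.0206). Keratinocyte markers were summed at 11.3 to 27.7 CPM in young and 42.6 to 270.2 CPM in aged samples, and fibroblast markers at 39.9 to 64.7 and 20.8 to 196 CPM, with both maxima in aged B. In the edgeR test 3 of 4 keratinocyte markers rose and 0 fell (3 and 0 at an unadjusted p under 0.05, 2 and 0 with DESeq2, 1 and 0 with limma-voom), and of 9 fibroblast markers 0 rose and 0 fell (0 and 0 at an unadjusted p under 0.05, with DESeq2 and with limma-voom). Dmkn and Krt14 led the keratinocyte list (edgeR adjusted p = 0.0325 and 0.0259), at 16.8 ± 7.77 and 0.0807 ± 0.0889 CPM in young and 37.9 ± 5.81 and 27.3 ± 45.8 CPM in aged samples. Krt14 had 0, 3 and 1 counts in young samples A, B and C, and 11, 1259 and 14 counts in the aged samples. Its aged mean rests on aged B, and it passed the filter on low counts only through the aged samples. Sparc and Col3a1 led the fibroblast list, at 16.7 ± 4.05 and 11.3 ± 3.03 CPM in young and 29.5 ± 32.4 and 19.2 ± 25.2 CPM in aged samples. Tpsb2, a mast cell tryptase gene, was at 14.2 ± 10.2 and 6.92 ± 11.7 CPM (edgeR adjusted p = 0.558). Endothelial markers were summed at 13.4 to 14.3 and 28.3 to 43.7 CPM. Pecam1, which leukocytes also express, was at 8.03 ± 1.82 and 25.9 ± 2.08 CPM, while Kdr was at 1.95 ± 0.990 and 1.46 ± 0.754 CPM and Cdh5, named after its values were seen, at 0.429 ± 0.336 and 0.127 ± 0.169 CPM. Markers of T, B and NK cells were summed at 10.0 to 20.5 and 7.39 to 8.69 CPM, led by Cd79b and Cd4 (log2 fold changes -1.58 and -1.76, edgeR adjusted p = 0.0308 and 0.0386). The part of these cells in the levels of the alternative activation genes was not tested.

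Paralogs of the alternative activation genes were measured as well. Tgm1, a transglutaminase gene best known from the epidermis, rose from 7.41 ± 1.55 to 30.4 ± 6.56 CPM (log2 fold change 2.03, edgeR adjusted p = 0.00147). Egr1 was at 91.2 ± 14.8 and 161 ± 85.8 CPM (log2 fold change 0.82, edgeR adjusted p = 0.104) and Chil1 at 16.8 ± 8.10 and 25.4 ± 15.2 CPM (log2 fold change 0.59, edgeR adjusted p = 0.353).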
